A study of Mus musculus with 9 samples.

Results

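The CC chemokine genes followed here are 7 ligands (Ccl2, Ccl3, Ccl4, Ccl5, Ccl7, Ccl8 and Ccl9) and 2 receptors (Ccr1 and Ccr2), taken by symbol from the probe annotation of the array. They are a chosen part of the family, and the array also measures other CC ligands and receptors. They make up 9 of the 17097 genes it names. Each gene was followed through its probe set with the highest mean over the 9 arrays, and differences were taken within an experiment. All 9 genes passed the filter that left out the dimmest 30% of genes.

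The bladders came from female C57BL/6J mice, and RNA of the whole organ was hybridised to Affymetrix mouse arrays. Tumour mice carried MB49, a mouse bladder carcinoma line instilled into the bladder on day 0 after the lining was preconditioned with poly-L-lysine. They then received 5 instillations of sham PBS or of alpha1-oleate, a complex of an alpha-lactalbumin peptide with oleic acid, at 1.7, 8.5 or 17 mM. The first was on day 3 and the last on day 11, and the bladders were taken on day 12. Healthy mice without MB49 received 17 mM alpha1-oleate and were labelled 24 h or 7 d, or served as PBS controls. Experiment 1 held 5 arrays, namely 1 each of tumours with sham PBS, 1.7, 8.5 and 17 mM and of healthy PBS. Experiment 2 held 4 arrays, namely 1 each of sham-treated tumour, healthy at 24 h, healthy at 7 d and healthy PBS. The ages of the mice were not given, nor whether an array held 1 bladder or a pool, and the p-values here cover no more than the spread between these arrays.

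One array labelled healthy carried raised proliferating-cell and leukocyte markers, and some arrays held genes of other organs. The array labelled healthy, 17 mM, 24 h (called the 24 h array below) carried proliferating-cell markers at a median log2 difference of 3.42 over the healthy PBS array of its experiment. Its pan-leukocyte markers lay at 2.62. The sham-treated tumour of that experiment had 5.78 and 3.34. Urothelial and detrusor smooth muscle markers lay at -0.62 and 0.25 in the 24 h array, against -4.02 and -1.92 in that tumour. An error of the label and an effect of 17 mM at 24 h cannot be told apart here. The liver gene Alb had log2 signals of 8.83 and 10.15 in the tumours given 8.5 and 17 mM and 8.80 in the 24 h array, against 3.52 to 4.57 in the other 6 arrays. Of the other liver genes measured, Apoa1, Serpina1c and Fgb (under the filter) were also highest in those 3 arrays. Ttr was not: it had 8.91 and 8.78 in the healthy PBS arrays and 8.35 at 7 d. In the 8.5 mM, 17 mM and 24 h arrays Ttr had 7.56, 8.16 and 8.29. The kidney gene Kap stood at 9.61 and 9.32 in the healthy PBS arrays and at 7.53 in the 24 h array, against 5.72 to 6.07 in the other 6. The part of such tissue in the results below was not tested. The log2 summed level of the 8 urothelial markers was 14.15 and 13.72 in the healthy PBS arrays of experiments 1 and 2. In the sham-treated tumours it was 10.67 and 9.98. The median difference of these markers between sham-treated tumour and healthy bladder was -3.59 in experiment 1 and -4.02 in experiment 2.

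CC chemokines are small secreted proteins with adjacent cysteines near the amino terminus, and they draw leukocytes along a gradient by engaging receptors with 7 transmembrane passes. Ccl2 and Ccl7 act on Ccr2 and bring inflammatory monocytes out of the blood. Ccl3, Ccl5 and Ccl9 act on Ccr1, which monocytes, macrophages and neutrophils carry. Mouse Ccl8 is known as a ligand of Ccr8, whereas human CCL8 engages several receptors. Many of these ligands are targets of NF-kB in activated macrophages and tumour cells, and in bulk tissue fewer cells of a type cannot be told apart from less RNA per cell.

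The ligand genes lie in clusters on mouse chromosome 11. Ccl2 is followed there by Ccl7 and Ccl11, Ccl12 by Ccl8 and Ccl1, and Ccl5 by Ccl9, Ccl6, Ccl3 and Ccl4, while Ccr1 and Ccr2 lie on chromosome 9, by the order of genes in RefSeq (GRCm38.p6). Promoter windows of 300 bases, from 250 before to 50 after the gene start, were matched in RefSeq (GRCm38.p6) for 5 of the 9 genes, namely Ccl3, Ccl8, Ccl9, Ccr1 and Ccr2. Those of 3 ligands are printed because their signals differed in direction from sham: Ccl3 lay furthest below the sham-treated tumour at 17 mM, and Ccl8 and Ccl9 lay above it at every dose. The Ccl3 window is chr11:83649329-83649628 on the minus strand, that of Ccl8 is chr11:82114935-82115234 on the plus strand and that of Ccl9 is chr11:83578587-83578886 on the minus strand. Capitals mark matches, on either strand, to the TATA box (TATAAA), the AP-1 site (TGANTCA), and the kappa B and interferon response element consensus sequences.
Ccl3: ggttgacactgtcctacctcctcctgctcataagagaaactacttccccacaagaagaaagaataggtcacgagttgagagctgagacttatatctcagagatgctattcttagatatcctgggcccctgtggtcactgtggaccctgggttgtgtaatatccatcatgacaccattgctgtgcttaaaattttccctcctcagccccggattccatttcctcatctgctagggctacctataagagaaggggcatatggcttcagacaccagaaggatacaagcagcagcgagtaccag
Ccl8: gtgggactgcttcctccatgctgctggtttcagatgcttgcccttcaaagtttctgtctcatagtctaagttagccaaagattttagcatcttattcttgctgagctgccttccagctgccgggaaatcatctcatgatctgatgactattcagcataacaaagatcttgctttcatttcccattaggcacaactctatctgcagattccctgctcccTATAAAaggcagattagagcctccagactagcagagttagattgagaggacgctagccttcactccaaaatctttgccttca
Ccl9: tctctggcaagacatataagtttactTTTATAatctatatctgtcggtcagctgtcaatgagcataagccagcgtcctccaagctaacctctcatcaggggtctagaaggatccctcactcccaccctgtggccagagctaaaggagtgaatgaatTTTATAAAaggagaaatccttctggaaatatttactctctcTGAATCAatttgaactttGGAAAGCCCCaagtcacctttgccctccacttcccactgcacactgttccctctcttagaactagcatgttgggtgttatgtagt

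The Ccl8 window held a TATA box at -32 from the gene start. The Ccl9 window held TATA matches at -224, -94 and -92, the last 2 overlapping on opposite strands, an AP-1 match at -53 and a kappa B match on the opposite strand at -35. None of the 4 motifs was found in the windows of Ccl3, Ccr1 and Ccr2. Among all 32851 windows of this length, 13.62% held a TATA match, 7.81% an AP-1 match, 4.51% a kappa B match and 3.44% an interferon response element match. A match is a description of letters only.

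All 9 genes were higher in the sham-treated tumour than in the healthy PBS bladder in both experiments, as were 43.6% of all genes tested. The largest differences were those of Ccl2, the monocyte attractant, and Ccr1, the receptor shared by several of the ligands, and the smallest those of Ccr2 and Ccl4. Ccl2 had log2 signals of 9.53 and 8.54 in the sham-treated tumours of experiments 1 and 2, against 3.74 and 3.67 in the healthy PBS bladders, which is 55.3-fold and 29.2-fold on the linear scale. The sham-treated tumours lay far above the healthy PBS arrays, which lay close together. Ccr1 had 8.64 and 8.03 in sham-treated tumours, against 3.07 and 3.41 in healthy PBS bladders (47.5-fold and 24.6-fold). For Ccr1 too both sham-treated tumours lay above both healthy PBS arrays, and the share of all genes that did so was not computed.

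The macrophage inflammatory proteins Ccl3 and Ccl4 showed the same direction with different sizes. Ccl3 had 7.62 and 6.52 in sham-treated tumours, against 3.45 and 3.44 in healthy PBS bladders. Ccl4 had 7.27 and 6.30 in sham-treated tumours, against 5.06 and 4.97 in healthy PBS bladders. Ccl7, the neighbour of Ccl2, had 7.88 and 6.32 in sham-treated tumours, against 4.38 and 3.85 in healthy PBS bladders. For these 3 ligands neither sham-treated tumour reached down to a healthy PBS array. Ccl5, which T cells, NK cells and macrophages make, had 8.04 and 7.16 in sham-treated tumours, against 5.71 and 5.38 in healthy PBS bladders. Ccl8 had 9.86 and 8.98 in sham-treated tumours, against 6.94 and 6.34 in healthy PBS bladders. Ccl9 had 8.76 and 8.04 in sham-treated tumours, against 6.51 and 6.07 in healthy PBS bladders. For these 3 ligands too both sham-treated tumours were above both healthy PBS arrays. Ccr2, the receptor that marks inflammatory monocytes, had 7.13 and 5.21 in sham-treated tumours, against 5.33 and 3.96 in healthy PBS bladders. Only for Ccr2 did the raw levels of the groups overlap, across the 2 separately normalized experiments, while within each experiment the tumour was higher. The share of all genes without overlap between these groups was not computed, so its absence is no trait of the genes named here.

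**Figure D1:**
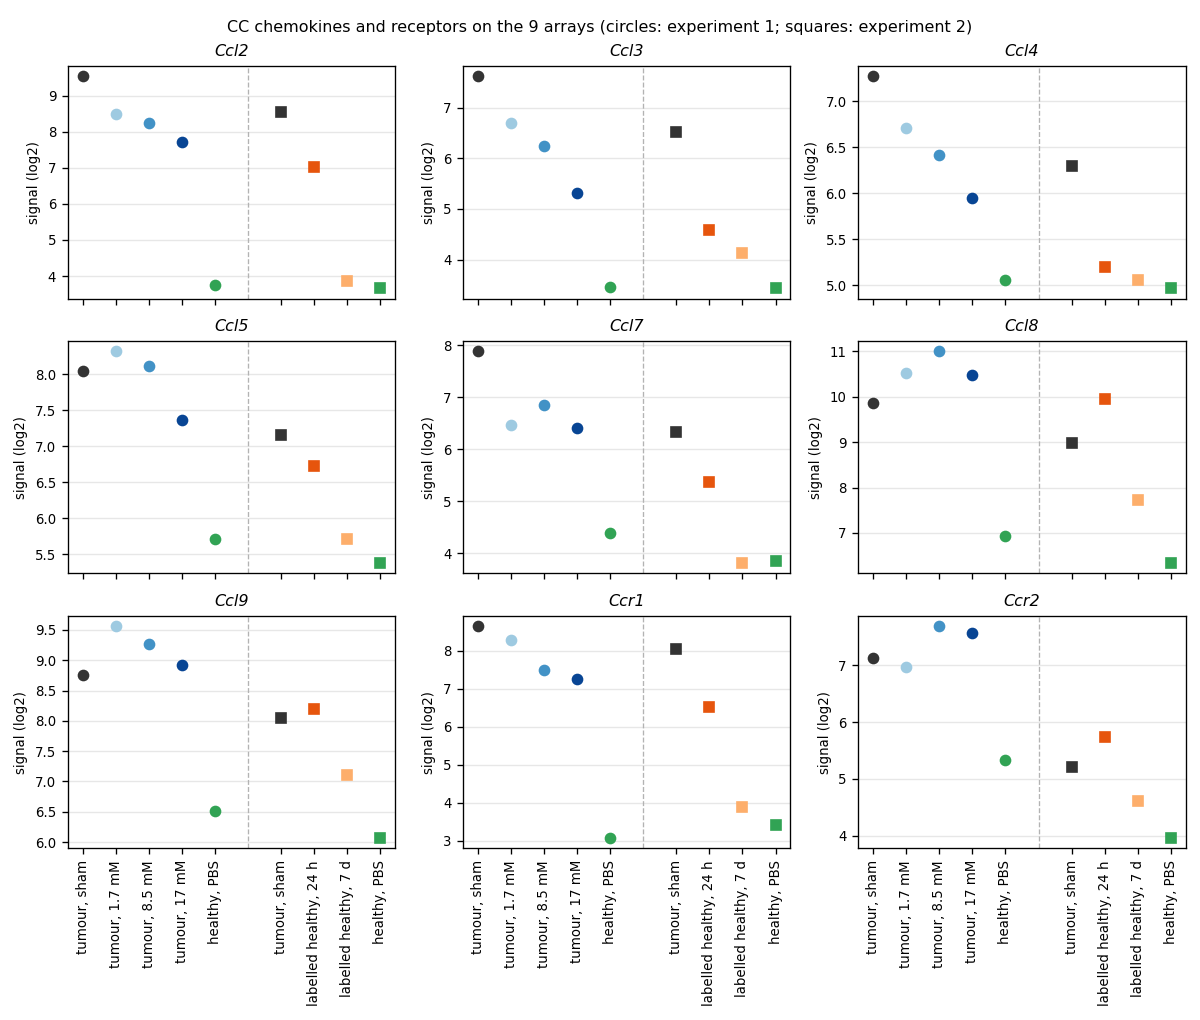
Log2 signal of each of the 9 genes on each of the 9 arrays, 1 point per array, with circles for experiment 1 and squares for experiment 2; each panel has its own vertical axis. Within each experiment the sham-treated tumour (black) lies above healthy PBS (green) for every gene, and Ccl8 stands out with 11.00 at 8.5 mM against 9.86 in the sham-treated tumour.

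In the fit across all genes (limma, with the experiment as a block and Benjamini-Hochberg adjustment over 11969 genes), all 9 genes passed as higher in the sham-treated tumour. Of all genes tested, 28.6% passed as higher, and 57.2% passed in either direction. The fitted log2 difference was 5.33 for Ccl2 (SE 0.27, limma adjusted p = 0.00266) and 5.095 for Ccr1 (SE 0.278, limma adjusted p = 0.00278). It was 3.625 for Ccl3 (SE 0.316), 2.985 for Ccl7 (SE 0.30), 2.78 for Ccl8 (SE 0.117), 2.11 for Ccl9 (SE 0.117), 2.055 for Ccl5 (SE 0.176) and 1.77 for Ccl4 (SE 0.26). Ccr2 had the smallest, 1.525 (SE 0.176, limma adjusted p = 0.00837), and its other 3 probe sets gave differences of 1.72, 0.93 and 0.53 in experiment 1. The median over the 9 genes was 2.78, against 0 over all genes tested. Without the block and without the sham-treated tumour of experiment 1, Ccl4 (limma adjusted p = 0.0552) and Ccr2 (limma adjusted p = 0.545) no longer passed, and Ccr2 also failed without the healthy PBS array of experiment 2 (limma adjusted p = 0.388).

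The difference was larger in experiment 1 than in experiment 2 for all 9 genes, as it was for 58.8% of all genes tested. The medians over the 9 were 2.92 in experiment 1 and 2.47 in experiment 2. The gap was widest for Ccl3 (4.17 and 3.08) and narrowest for Ccl8 (2.92 and 2.64) and Ccl9 (2.25 and 1.97). Because the doses were run in experiment 1 alone, the dose differences below are also set against the sham-treated tumour of experiment 2. For this each tumour was first taken as a difference from the healthy PBS array of its own experiment. These values are given in full at 17 mM and at the other doses where the direction turned.

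**Figure D2:**
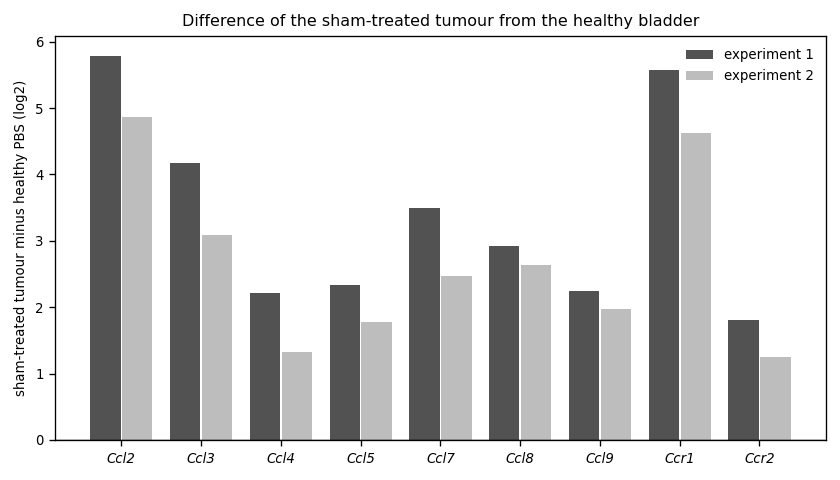
Log2 difference of the sham-treated tumour from the healthy PBS bladder for each gene, with dark bars for experiment 1 and light bars for experiment 2, 1 array per group in each. All bars are above 0, from 1.25 for Ccr2 in experiment 2 to 5.79 for Ccl2 in experiment 1, and the dark bar is the taller for every gene.

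Across the doses of alpha1-oleate in the tumours of experiment 1, the 9 genes showed 3 patterns. Ccl2, Ccl3, Ccl4, Ccl7 and Ccr1 had lower signal than the sham-treated tumour at each of the 3 doses, Ccl8 and Ccl9 had higher signal at each dose, and Ccl5 and Ccr2 lay on both sides. A gene below the sham-treated tumour at all 3 doses was common (37.7% of all genes tested), as was one above it (31.4%). All 3 dose differences share 1 sham array. On the same arrays the median difference of the proliferating-cell markers from sham was -0.25, -1.20 and -1.67 from the lowest dose to the highest, and that of the urothelial markers 0.82, 2.64 and 2.90. At 17 mM all 5 proliferating-cell markers fell and all 8 urothelial markers rose, and the part of this shift in tissue in the values below was not tested.

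Ccl2 had log2 signals of 9.53 in the sham-treated tumour, 8.49 at 1.7 mM, 8.24 at 8.5 mM, 7.70 at 17 mM and 3.74 in healthy PBS. The order followed the dose, and the 17 mM tumour remained well above the healthy bladder. On the linear scale, the tumour given 17 mM had 26.8% of the excess over healthy PBS that the sham-treated tumour had, against 39.8% at 8.5 mM and 47.7% at 1.7 mM. Ccl7 had 7.88 in the sham-treated tumour, 6.46 at 1.7 mM, 6.85 at 8.5 mM, 6.41 at 17 mM and 4.38 in healthy PBS. Its 3 treated tumours lay close together with no order by dose, and kept 31.3%, 44.0% and 29.9% of the excess from the lowest dose to the highest.

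Ccl3 had 7.62 in the sham-treated tumour, 6.69 at 1.7 mM, 6.24 at 8.5 mM, 5.31 at 17 mM and 3.45 in healthy PBS. It followed the dose and kept the least of its excess at 17 mM, 15.5%, so that its 17 mM signal was 0.202 of that in the sham-treated tumour. Ccl4 had 7.27 in the sham-treated tumour, 6.71 at 1.7 mM, 6.41 at 8.5 mM, 5.95 at 17 mM and 5.06 in healthy PBS. It went with Ccl3 in order, and 23.5% of its excess remained at 17 mM. Ccr1 had 8.64 in the sham-treated tumour, 8.28 at 1.7 mM, 7.48 at 8.5 mM, 7.25 at 17 mM and 3.07 in healthy PBS. Most of its difference appeared between 1.7 and 8.5 mM (-0.80), and 36.8% of its excess remained at 17 mM. Its second probe set had a difference of -1.54 at 17 mM, close to the -1.39 of the first. These shares rest on the sham array of experiment 1: with the tumour excess of experiment 2 in its place, the share kept at 17 mM was 51.6% for Ccl2, 35.3% for Ccl3, 56.4% for Ccl4, 67.9% for Ccl7 and 72.6% for Ccr1, and at 1.7 mM it ranged from 71.1% for Ccl7 to 153% for Ccr1.

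Ccl5 had 8.04 in the sham-treated tumour, 8.32 at 1.7 mM, 8.11 at 8.5 mM, 7.37 at 17 mM and 5.71 in healthy PBS. It was lower than in the sham-treated tumour at the highest dose alone, with a difference of -0.67. Its step between 8.5 and 17 mM, -0.74, lay at the 0.6 percentile of all genes tested. This was not particular to Ccl5: for the same step Ccl3 lay at the 0.3 percentile, Ccl2 at 1.8 and Ccl8 at 2.1. Ccr2 lay highest of the 9, at 21.7. The T and NK cell markers had a median difference from sham of -0.06 at 8.5 mM and -0.84 at 17 mM, and their part in the Ccl5 value was not tested.

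Ccl8 had 9.86 in the sham-treated tumour, 10.53 at 1.7 mM, 11.00 at 8.5 mM, 10.48 at 17 mM and 6.94 in healthy PBS. The 3 treated tumours were its highest arrays of the experiment, with the peak at the middle dose, 2.20-fold the sham signal. Ccl9 had 8.76 in the sham-treated tumour, 9.56 at 1.7 mM, 9.26 at 8.5 mM, 8.92 at 17 mM and 6.51 in healthy PBS. It was highest at the lowest dose, and its second probe set gave the same direction at 17 mM (0.29, against 0.16). Ccr2 had 7.13 in the sham-treated tumour, 6.98 at 1.7 mM, 7.69 at 8.5 mM, 7.57 at 17 mM and 5.33 in healthy PBS. Its probe sets disagreed at 17 mM, with differences of 0.44, 0.55 and 0.17 for 3 of them and -0.71 for the other.

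Among the 1684 genes at least 2-fold higher in the sham-treated tumour than in healthy PBS in experiment 2, whose arrays the doses do not share, 76.4% were below the sham-treated tumour of experiment 1 at all 3 doses and 1.72% (29 genes) were above it at all 3. Ccl8 and Ccl9 were 2 of these 29. At 17 mM the median of the 1684 genes was -0.93 and 96.9% of them were below sham. The median over the 9 CC genes was -1.32, with 6 below sham and 3 above it.

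**Figure D3:**
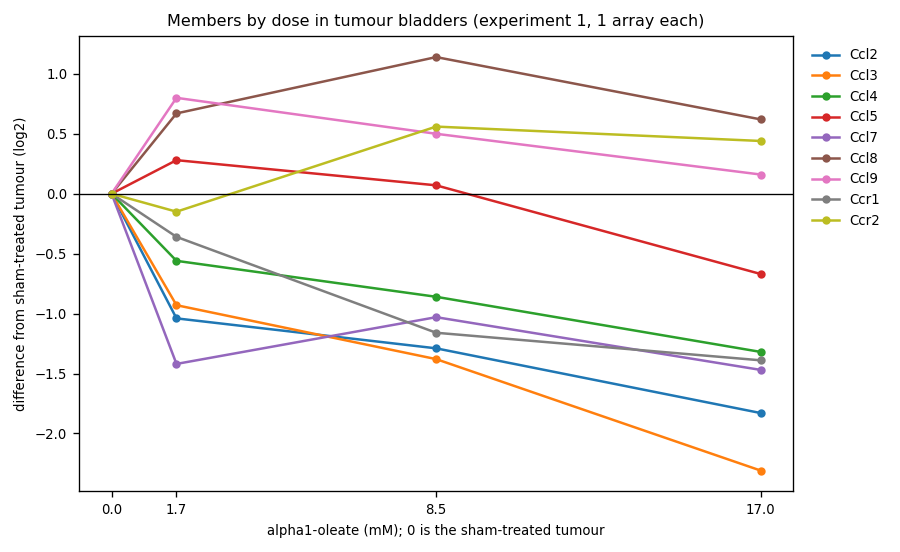
Log2 difference from the sham-treated tumour (0 mM) at 1.7, 8.5 and 17 mM alpha1-oleate in tumour bladders of experiment 1, 1 line per gene and 1 array per dose. Ccl3 ends lowest, at -2.31, and Ccl8 highest, at 0.62, and every line is lower at 17 mM than at 8.5 mM.

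Each of the 9 genes had lower signal at 17 mM than at 8.5 mM, which 47.5% of all genes tested and 85.4% of the 1684 tumour-raised genes also showed. The differences ran from -0.93 for Ccl3 to -0.12 for Ccr2 with a median of -0.46, and rest on 1 array per dose. The median difference of the pan-leukocyte markers between these 2 arrays was -0.45, and its part in the result was not tested.

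In the fit across all genes none of the 9 passed at 17 mM against sham (0 of 9), whereas 26.3% of all genes did, 15.7% as higher and 10.6% as lower. At an unadjusted p under 0.05, 5 of the 9 passed, as did 5191 of the 11969 genes tested. Ccl3 came nearest, with a log2 difference of -2.038 (SE 0.418, limma adjusted p = 0.0517), then Ccl2 at -1.60 (SE 0.358, limma adjusted p = 0.0597) and Ccl8 at 0.69 (SE 0.155, limma adjusted p = 0.0598). The values were -1.212 for Ccl7, -1.152 for Ccr1, -1.10 for Ccl4, -0.532 for Ccl5, 0.577 for Ccr2 and 0.23 for Ccl9, with limma adjusted p-values between 0.107 and 0.338. With the 9 arrays quantile-normalized together, 6 of the 9 passed: Ccl2, Ccl3, Ccl4, Ccl7 and Ccr1 as lower and Ccl8 as higher. Under that setting 4397 of all genes passed, against 3147 as deposited. Against the sham-treated tumour of experiment 2, each tumour as a difference from its own healthy PBS array, each value kept its sign and the decreases were smaller. They were -1.22 for Ccl3, -0.91 for Ccl2, -0.44 each for Ccl4, Ccl7 and Ccr1 and -0.12 for Ccl5. Ccl8 stood at 0.90, Ccl9 at 0.44 and Ccr2 at 0.99. Without that step Ccl5 and Ccl7 changed direction, with raw signals of 7.37 and 6.41 at 17 mM, against 7.16 and 6.32 in that sham-treated tumour.

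At 8.5 mM, 1 of the 9 genes passed: Ccl8 rose by 1.21 on the log2 scale (SE 0.155, limma adjusted p = 0.0348), where 15.6% of all genes passed, 11.0% as higher and 4.65% as lower. Ccl8 also passed without the block, with joint quantile normalization, with and without the filter and with a variance trend (limma adjusted p between 0.00796 and 0.045). It no longer passed when the block and 1 array were left out together, with limma adjusted p = 0.476 without the sham-treated tumour of experiment 2 and 0.0698 without either healthy PBS array. The other 8 had limma adjusted p-values from 0.101 for Ccl9 to 0.573 for Ccl5. With joint quantile normalization 7 of the 9 passed (and 3274 of all genes), Ccl2, Ccl3, Ccl7 and Ccr1 as lower and Ccl8, Ccl9 and Ccr2 as higher. At 1.7 mM limma called 0 of the 9 genes, as it called 0% of all genes (0 genes, against 1595 at an unadjusted p under 0.05). The unadjusted threshold was met at 1.7 mM by Ccl8 (0.74) and Ccl9 (0.87). Against the sham-treated tumour of experiment 2, again by way of the healthy PBS arrays, the 1.7 mM differences of Ccl3, Ccl4, Ccr1 and Ccr2 turned to 0.16, 0.32, 0.59 and 0.40. Those of Ccl4 and Ccl7 at 8.5 mM turned to 0.02 and 0.00.

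With dose as a line over the sham-treated, 1.7, 8.5 and 17 mM tumours, 4 of the 9 genes fell with dose. The slope was -0.110 log2 per mM for Ccl3 (SE 0.021, limma adjusted p = 0.024), -0.082 for Ccl2 (SE 0.022, limma adjusted p = 0.0428), -0.072 for Ccr1 (SE 0.018, limma adjusted p = 0.0374) and -0.060 for Ccl4 (SE 0.016, limma adjusted p = 0.0403). Of all genes tested 14.4% passed as lower with dose and 30.9% in either direction. The slopes of the other 5 were -0.049 for Ccl7, -0.037 for Ccl5, -0.001 for Ccl9, 0.035 for Ccl8 and 0.040 for Ccr2. The calls rest on single arrays: 0 genes in the whole table passed when either sham-treated tumour, either healthy PBS array or the 1.7 mM array was left out with the block kept, and 0 of the 9 without the 17 mM array. Without the 8.5 mM array 2 of the 9 passed, Ccl3 and Ccr1, and without the block 1, Ccl3. Ccl2 also lost its call without the filter (limma adjusted p = 0.0516).

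Even at 17 mM every one of the 9 genes had more signal than the healthy PBS bladder of experiment 1. So had 5986 of the 11969 genes tested and 1628 of the 1684 tumour-raised genes. The log2 differences ran from 0.89 for Ccl4 to 4.18 for Ccr1, with 3.96 for Ccl2 and 3.54 for Ccl8. In the fit 4 of the 9 passed as higher, where 2.61% of all genes passed as higher and 2.97% in either direction. These were Ccr1 at 3.943 (SE 0.368, limma adjusted p = 0.0472), Ccl2 at 3.73 (SE 0.358, limma adjusted p = 0.0481), Ccl8 at 3.47 (SE 0.155, limma adjusted p = 0.0364) and Ccl9 at 2.34 (SE 0.155, limma adjusted p = 0.0397). Ccr2 (2.102), Ccl7 (1.773), Ccl3 (1.587), Ccl5 (1.523) and Ccl4 (0.67) did not pass, with limma adjusted p-values from 0.0548 to 0.288. Ccl2 (limma adjusted p = 0.0609) and Ccr1 (limma adjusted p = 0.0599) lost their calls without the filter, and 8 of the 9 passed with joint quantile normalization or without the block.

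The array labelled healthy, 17 mM, 24 h had more signal of all 9 genes than the healthy PBS array of experiment 2. So had 43.9% of all genes and 98.2% of the 1684 tumour-raised genes. Ccl8 had 8.98 in the sham-treated tumour of that experiment, 9.95 in the 24 h array, 7.72 in the 7 d array and 6.34 in healthy PBS. The 24 h array was thus its highest, 12.2-fold the healthy PBS signal. Ccl2 had 8.54 in the sham-treated tumour, 7.03 in the 24 h array, 3.86 in the 7 d array and 3.67 in healthy PBS, and Ccr1 had 8.03, 6.52, 3.88 and 3.41 in that order of arrays. For both, on the log2 scale, the 24 h array lay nearer to the tumour and the 7 d array nearer to healthy PBS. On the linear scale the 24 h array had 32.8% (Ccl2) and 32.4% (Ccr1) of the excess of that tumour over healthy PBS. The markers of proliferating cells and leukocytes given above were raised on the same 24 h array, and their part in these values was not tested.

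Set against the sham-treated tumour run beside it, the 24 h array was higher for Ccl8 (by 0.97), Ccr2 (by 0.52) and Ccl9 (by 0.15) and lower for the other 6, from -0.44 for Ccl5 to -1.93 for Ccl3. In the 17 mM tumour of experiment 1, Ccl8 (0.62), Ccr2 (0.44) and Ccl9 (0.16) lay above the sham-treated tumour of that experiment and the same other 6 lay below, from -0.67 for Ccl5 to -2.31 for Ccl3. These 2 comparisons use no array in common. The likeness was not limited to the 9 genes. Urothelial markers lay above sham by a median of 3.29 in the 24 h array and 2.90 in the 17 mM tumour. For proliferating-cell markers the medians were -2.18 and -1.67. The share of all genes that agreed in sign was not computed. The excess over healthy PBS in the 24 h array was 214% of that in the sham-treated tumour for Ccl8, 175% for Ccr2 and 115% for Ccl9, against 162%, 150% and 115% in the 17 mM tumour. For Ccl3 it was 16.4% in the 24 h array and 15.5% in the 17 mM tumour. With the tumour excess of experiment 2 the shares in the 17 mM tumour were 203% for Ccl8, 270% for Ccr2, 148% for Ccl9 and 35.3% for Ccl3.

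In the 7 d array the differences from healthy PBS were largest for Ccl8 (1.38) and Ccl9 (1.03). Ccl3 had 0.70, Ccr2 0.65, Ccr1 0.47, Ccl5 0.33, Ccl2 0.19, Ccl4 0.09 and Ccl7 -0.04. Thus 8 of the 9 were above healthy PBS, as were 42.8% of all genes and 56.8% of the 1684 tumour-raised genes. Among all genes tested these differences ran from the 48.4 percentile for Ccl7 to 99.7 for Ccl8. Ccl3 lay at 98.1, Ccr2 at 97.7, Ccr1 at 95.2 and Ccl5 at 91.2. The pan-leukocyte markers were higher by a median of 0.73 and the macrophage markers by 0.62 in this array, with neutrophil markers at -0.10. For each of the 24 h and 7 d arrays against healthy PBS, and for 24 h against 7 d, limma called 0 of the 9 genes and 0% of all genes. At an unadjusted p under 0.05, 8 of the 9 passed at 24 h, 3 at 7 d (Ccl8, Ccl9 and Ccr2) and 7 between 24 h and 7 d, where 2503, 1096 and 2660 of all genes did. The smallest adjusted p among the 9 was 0.0568, for Ccl8 at 24 h (limma, log2 difference 3.68), and with joint quantile normalization 8 of the 9 passed at 24 h.

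**Figure D4:**
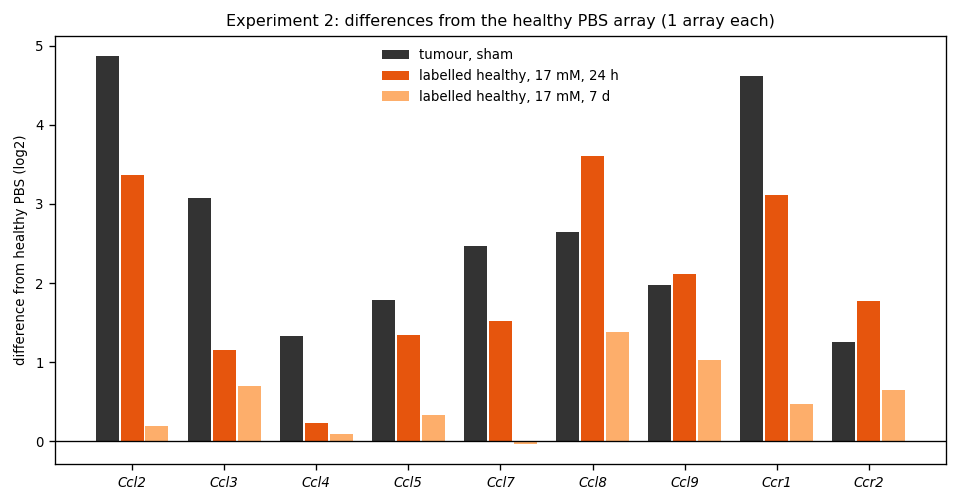
Log2 difference from the healthy PBS array of experiment 2 for each gene, in the sham-treated tumour (black), the array labelled healthy, 17 mM, 24 h (orange) and that labelled 7 d (light orange), 1 array each. The 24 h bar exceeds the tumour bar for Ccl8 (3.61 against 2.64), Ccl9 (2.12 against 1.97) and Ccr2 (1.77 against 1.25), and the 7 d bars are highest for Ccl8 and Ccl9.

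Among the other CC ligands, 5 of the 12 tested rose and none fell in the sham-treated tumour against healthy PBS. Of all genes tested, 28.6% passed as higher there and 28.6% as lower. Ccl12, a mouse Ccr2 ligand next to Ccl8, rose by 5.11, Ccl24, an eosinophil attractant, by 4.805 and Ccl6, a Ccr1 ligand next to Ccl9, by 3.025. At 17 mM against sham, where 26.3% of all genes passed, 1 of the 12 did: Ccl12 fell by 1.74 (SE 0.316, limma adjusted p = 0.0429). It was also lower at 1.7 and 8.5 mM, with differences of -1.96 and -1.63 in experiment 1, where its neighbour Ccl8 was higher by 0.67 and 1.14. Ccl6 differed from sham by 0.09, 0.05 and -0.15 from the lowest dose to the highest, where its neighbours Ccl9 and Ccl3 lay at 0.16 to 0.80 and at -2.31 to -0.93. Of 5 other CC and atypical receptors tested, 1 rose (the scavenger Ackr3, by 1.425) and 1 fell (the scavenger Ackr2, a difference of -0.645) in the sham-treated tumour, and none passed at 17 mM.

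Of 18 inducer and feedback genes of NF-kB and IRF signalling tested, 17 rose in the sham-treated tumour, where 28.6% of all genes did. Il1b stood at 3.825, Csf1 at 3.55 and Nfkb2 at 3.345. At 17 mM 10 of the 18 fell, among them Nfkb2 with a difference of -1.843 (SE 0.148), Nfkbiz with -1.51 (SE 0.155) and Csf1 with -1.43 (SE 0.13), and none rose. Of all genes tested, 10.6% passed as lower at 17 mM and 15.7% as higher. The median fitted difference of the list at 17 mM was -0.86, against -1.10 for the 9 CC genes and -0.05 for all genes tested. The part of these genes in the ligand values was not tested.

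The leukocyte markers did not move as 1 group at 17 mM, where 10.6% of all genes passed as lower than sham and 15.7% as higher. All 5 neutrophil markers tested fell (median difference in experiment 1 -1.35), and their log2 summed level was 10.34 in the 17 mM tumour, against 12.04 in the sham-treated tumour and 7.53 in healthy PBS. Of 12 macrophage markers 3 rose and 1 fell (median -0.18), and of 6 monocyte markers 1 rose and none fell (median 0.02). Of 6 pan-leukocyte markers 2 fell (median -0.73), and of 9 T and NK cell markers 2 fell (median -0.84). The 4 eosinophil markers were all under the filter. The summed log2 level of the macrophage markers was 12.55 at 17 mM, against 12.77 in the sham-treated tumour and 10.32 in healthy PBS, and that of the monocyte markers was 11.72, against 11.47 and 10.05. The part of these cells in the ligand values was not tested.

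**Figure D5:**
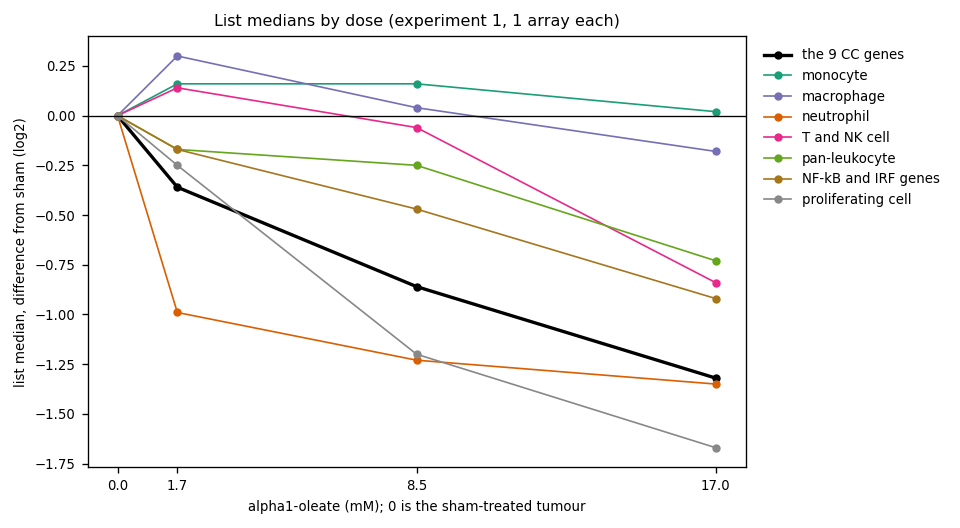
Median log2 difference from the sham-treated tumour (0 mM) at 1.7, 8.5 and 17 mM in experiment 1, for the 9 CC genes (thick black line) and for lists of cell-type markers and of NF-kB and IRF genes, 1 array per dose. The 9 CC genes end at -1.32 and the neutrophil markers at -1.35, while the monocyte and macrophage markers stay between -0.18 and 0.30.

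Across the 7 arrays other than healthy PBS, as differences from the healthy PBS array of the same experiment, the 9 genes varied together to different degrees. Pearson's r was 0.991 between Ccl3 and Ccl4, 0.987 between Ccl2 and Ccr1, 0.972 between Ccl2 and Ccl7 and 0.917 between Ccl8 and Ccr2. It was 0.331 between Ccl3 and Ccl8 and 0.345 between Ccl3 and Ccr2. These are descriptions over 7 arrays that share 2 healthy arrays and the same tumour model. Outside the 9, the genes with the most similar pattern were Rinl (r = 0.999) for Ccl4, Dgkz (r = 0.998) for Ccl2, Apol9a (r = 0.997) for Ccl3, and the cell division gene Ube2c (r = 0.998) for Ccr1. For Ccl5 they were Nkg7 (r = 0.995), Ctsa (r = 0.991) and Gzmb (r = 0.99), of which Nkg7 and Gzmb are genes of cytotoxic lymphocytes. Ccl7 was most like H3c14 (r = 0.988), with its fellow monocyte attractant Ccl12 the third at r = 0.984. Ccl8 was most like Ogfrl1 (r = 0.988), Ccl9 most like Gorasp2 (r = 0.987) and Ccr2 most like Pip4k2a (r = 0.99).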

How the data were processed

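Values are the deposited log2 RMA intensities of 45077 probe sets on 9 Affymetrix mouse arrays. RMA and Transcriptome Analysis Console 4.0.1.36 are the processing named in the submitters' processing notes, and per the labels 100 ng of total RNA was amplified with the GeneChip 3' IVT Express kit. As to the build, it is not given in the sources used here, and no coordinate of the array was used.

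The annotation supplied with the array names 1 gene for 28898 probe sets, several for 551 and none for 15588. 40 control probe sets were left out. Genes below a mean log2 signal of 4.16 (the lowest 30%) were left out, and 11969 stayed. The 2 experiments were normalized apart: sorted values deviated by 0.022 within an experiment and by 0.329 between them. The experiment, numbered in the labels, was therefore a block. The differences between experiments correlated at 0.647 across genes between the healthy PBS and the sham-treated tumour arrays. One limma fit (limma 3.58.1, R 4.3.3) held 7 group means and the block, with 1 residual degree of freedom and 2.23 prior ones. The dose slope had 3 and 2.54. A group with 1 array is assumed to vary like the others. Calls are at an adjusted p under 0.05. Precision is limited by the number of arrays. Figures were drawn in matplotlib 3.10.9.

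The 9 genes and all gene lists were chosen with earlier results of these data known. All 9 were named, with up to 3 genes a list that passed in a comparison, by size, and up to 3 genes most alike in pattern. Alternatives were no block, joint quantile normalization, no filter or a 50% filter, the mean of a gene's probe sets, a variance trend, dose as steps and left-out arrays. Leaving out the array labelled healthy, 17 mM, 24 h before the choice of probe sets and the filter, and the share of the tumour excess taken with the sham array of experiment 2, were added after seeing the data.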

Additional observations from a re-analysis of the deposited data

How the results depend on the processing

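Over the 9 genes and all comparisons, 1224 values were recomputed under alternatives. Of these, 955 kept their direction and side of the threshold (or moved by less than the spread), 95 newly passed and 50 lost their call. Another 90 moved with no test possible, and 34 were counted as changed in sign. Where no test was possible, a change of sign was counted only for values called in the main fit. Other such changes lie among the 90 or the 955, so 34 is a lower bound. With the block, leaving out a PBS array leaves no residual degree of freedom for the group means, so those are values with no test. With the array labelled healthy, 17 mM, 24 h left out before the choice of probe sets, no call of the 9 genes changed in the comparisons that do not use it. The cause of the changes below was not tested.

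With no replicate block, the genes called were 3172 for sham-treated tumour against healthy PBS, 1217 for 17 mM, 945 for 8.5 mM and 36 for 1.7 mM against sham, 590 for 17 mM against healthy PBS, 126 at 24 h, 15 at 7 d, 73 for 24 h against 7 d and 1125 for the slope. Of the 9 genes, 1 passed at 17 mM against sham, 8 at 17 mM against healthy PBS, 4 at 24 h, 2 for 24 h against 7 d and 1 for the slope. Ccr2 at 1.7 mM turned to 0.81, Ccl7 and Ccr2 at 7 d to -0.305 and -0.035, and the Ccl9 slope to 0.020. With joint quantile normalization, 6 of the 9 passed at 17 mM and 7 at 8.5 mM against sham (3274 genes), 8 at 17 mM against healthy PBS (2188 genes), 8 at 24 h (782 genes), 6 for 24 h against 7 d (885 genes), and 28 genes passed at 7 d. Without the filter 2 of the 9 and 202 genes passed at 17 mM against healthy PBS. With the lowest 50% left out, 1 of the 9 passed at 17 mM against sham, 577 genes at 17 mM against healthy PBS, and 2 of the 9 and 121 genes at 24 h. With the mean of probe sets, 1 of the 9 passed at 17 mM against sham, 684 genes at 17 mM against healthy PBS, 1 of the 9 and 96 genes at 24 h, while Ccr2 at 1.7 mM turned to 0.005 and the Ccl9 slope to 0.004. With a variance trend, 3 of the 9 passed at 17 mM against sham, 732 genes at 17 mM against healthy PBS, 2 of the 9 and 198 genes at 24 h, and 1 of the 9 and 59 genes for 24 h against 7 d. With dose as steps the Ccl9 slope was 0.068.

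With 1 PBS array left out and no block (for the slope, also with the block kept and with 1 dosed tumour left out), the genes called ranged from 2230 to 2807 for sham-treated tumour against healthy PBS, 850 to 1378 for 17 mM, 519 to 1125 for 8.5 mM and 7 to 212 for 1.7 mM against sham, 244 to 676 for 17 mM against healthy PBS, 76 to 153 at 24 h, 7 to 21 at 7 d, 59 to 107 for 24 h against 7 d and 0 to 3271 for the slope. Of the 9 genes, 1 to 2 passed at 17 mM and 0 to 2 at 8.5 mM against sham, 5 to 8 at 17 mM against healthy PBS, 3 to 4 at 24 h, 2 to 3 for 24 h against 7 d and 0 to 4 for the slope. With 1 PBS array left out, with or without the block, Ccl5 at 17 mM against sham ranged from -0.67 to 0.21 and Ccl7 from -1.47 to 0.09. At 8.5 mM Ccl4 ranged from -0.86 to 0.11 and Ccl7 from -1.03 to 0.53. At 1.7 mM Ccl3 ranged from -0.93 to 0.17, Ccl4 from -0.56 to 0.41, Ccl7 from -1.42 to 0.14, Ccr1 from -0.36 to 0.59 and Ccr2 from -0.15 to 1.77. At 7 d Ccl7 ranged from -0.57 to 0.99, Ccr2 from -0.72 to 1.20, Ccl4 from 0.00 to 0.97 and Ccl5 from 0.00 to 0.88. With a PBS array or a dosed tumour left out, the slope ranged from -0.072 to 0.006 for Ccl7, from -0.020 to 0.044 for Ccl9 and from -0.045 to 0.013 for Ccl5.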

Other observations

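Genes of other chemokine families also lay on both sides of the sham-treated tumour under treatment. Of 16 chemokine and receptor genes outside the CC family, 10 rose and 2 fell in the sham-treated tumour against healthy PBS, led by Cxcl9 (5.975) and Cxcl10 (5.67), which draw T cells, and Cxcl2 (5.94), which draws neutrophils. Of all genes tested, 28.6% passed as higher in that tumour and 28.6% as lower. At 17 mM against sham 4 of the 16 fell and 2 rose, where 10.6% of all genes passed as lower and 15.7% as higher. Cxcl1 and Cxcl2, both ligands for neutrophils, fell by 2.108 (SE 0.19, limma adjusted p = 0.0185) and by 2.055 (SE 0.243, limma adjusted p = 0.023). The stromal chemokines Cxcl12 and Cxcl14, which were the 2 that fell in the sham-treated tumour, rose by 3.015 (SE 0.309, limma adjusted p = 0.0202) and 2.707 (SE 0.122, limma adjusted p = 0.0159). Fibroblast markers were higher by a median of 1.87 and detrusor smooth muscle markers by 2.20 in the same tumour of experiment 1.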
